A study of Mus musculus with 13 samples.

Results

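A set of 10 glucocorticoid-linked genes was followed in the gastrocnemius muscle of obese mice: the receptor gene Nr3c1, the steroid-activating enzyme gene Hsd11b1, the target genes Fkbp5, Tsc22d3, Zbtb16, Sgk1 and Klf15, the C/EBP factors Cebpd and Cebpb, and Lcn2. The 10 rows were listed by name and were chosen from values already measured across these same groups. Their differences between groups are therefore given as a description and no p-value is printed for them. Where one of them is said to be past a threshold, that is a description too. They are 10 of the 21868 gene rows in the table, and all 10 were among the 12303 genes that were tested. The mice were male C57BL/6 by the labels, C57BL/6N by the study's own account of these data, arrived at an age of 7 weeks, were fed a diet with 60 kcal% fat for 15 to 17 weeks and were then moved to standard chow. For 3 weeks, 5 mice received phosphate-buffered saline (vehicle, mice 1 to 5), 5 mice received semaglutide at 30 nM/kg/day into the peritoneum (semaglutide, mice 13 to 17), and 3 mice received semaglutide with a ketone ester at 0.114 g/mL in their drinking water (semaglutide + ketone ester, mice 19, 21 and 22). The labels name these groups Vehicle+placebo, Semaglutide+placebo and Semaglutide+ketone ester, and what the placebo was is not given in the sources used here. Semaglutide is an agonist of the GLP-1 receptor, and the ketone ester is a compound from which the body makes ketones. All 13 mice had been made obese and all were on chow when treated, so no lean group and no group given ketone ester alone enters these comparisons. Each library came from 1 mouse, and the spread reported is the spread between mice.

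Glucocorticoids are steroid hormones of the adrenal cortex that bind the glucocorticoid receptor, a transcription factor held in the cytoplasm by heat shock protein chaperones and released to the nucleus on binding. There it binds DNA at palindromic response elements and switches on target genes, and in skeletal muscle this program is known for promoting protein breakdown and the release of amino acids. C/EBP factors are leucine zipper proteins that are induced by glucocorticoids and by cytokines and that act on genes of metabolism and of the acute phase response.

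Promoter sequences are shown for 3 genes that hold the letters that the glucocorticoid receptor or C/EBP factors are known to read. Hsd11b1 also holds C/EBP letters and is not shown. The entries of Klf15, Fkbp5 and Cebpb hold none of the letters searched for. RefSeq promoters (GRCm38.p6, the build also called mm10, 250 bases before to 50 after each start site) were matched by symbol for 7 of the 10 genes. There were 14 entries in all, 6 of them for Sgk1 and 3 for Tsc22d3. The 250 bases before the start site are printed 5′ to 3′ on the strand of the gene, and capitals mark the half-site AGAACA or its reverse complement, the full palindrome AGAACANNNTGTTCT, and the C/EBP letters TTNNGNAA on either strand.
Sgk1 (entry 5, chr10:21993640-21993889, plus strand): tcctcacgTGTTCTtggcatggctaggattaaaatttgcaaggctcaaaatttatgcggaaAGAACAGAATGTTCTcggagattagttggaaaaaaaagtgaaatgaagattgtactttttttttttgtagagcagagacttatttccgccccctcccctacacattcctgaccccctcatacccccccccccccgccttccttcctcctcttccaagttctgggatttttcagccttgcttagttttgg
Tsc22d3 (entry 2, chrX:140600523-140600772, minus strand): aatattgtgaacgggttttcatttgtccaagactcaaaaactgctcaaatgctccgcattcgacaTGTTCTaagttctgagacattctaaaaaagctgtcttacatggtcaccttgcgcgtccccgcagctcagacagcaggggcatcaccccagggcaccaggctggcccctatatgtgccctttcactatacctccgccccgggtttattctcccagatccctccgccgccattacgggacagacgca
Lcn2 (chr2:32387740-32387989, minus strand): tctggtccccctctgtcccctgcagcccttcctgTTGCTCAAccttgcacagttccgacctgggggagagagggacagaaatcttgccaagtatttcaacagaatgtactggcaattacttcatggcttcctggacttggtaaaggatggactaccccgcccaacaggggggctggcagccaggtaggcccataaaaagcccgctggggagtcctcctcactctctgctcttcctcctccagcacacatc
The Sgk1 window held the full palindrome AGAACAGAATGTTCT at chr10:21993701-21993715, 189 bases before that start site and 965 bases before the next one. Each arm of the palindrome is also a half-site, and a further half-site began at -242, counted back from the start site. Of 32851 RefSeq promoter entries of the same length, 3 held the full palindrome (0.00913%). The half-site was in 4 of the 14 entries, namely 3 of Sgk1 and 1 of Tsc22d3, where it began 185 bases before the start site, and in 18.97% of all entries. The C/EBP letters were in 5 of the 14 entries (3 of Sgk1, 1 each of Hsd11b1 and Lcn2) and in 40.68% of all entries. In Lcn2 they read TTGCTCAA at 216 bases before the start, which also matches the narrower core TTGCNNAA held by 10.8% of all entries. These are matches of letters and binding was not measured here.

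The libraries held 15319471 to 23498162 reads on genes, all carried 1 batch label, and the values are normalized counts. One mouse stood apart. On the first principal component of all tested genes (38.1% of the variance), semaglutide mouse 13 scored -9.12, whereas the other 4 semaglutide mice scored 31.8 to 52.5 and the vehicle mice -24.5 to -12.8. Mouse 13 was below every other semaglutide mouse for 6 of the 10 genes (Klf15, Fkbp5, Cebpd, Cebpb, Sgk1 and Lcn2) and above them for Nr3c1. It lay within the vehicle range for 5 genes, below it for 3 (Klf15, Cebpb and Nr3c1) and above it for 2 (Zbtb16 and Lcn2). Differences are therefore given with and without mouse 13. The fit without it was added after the data were seen. Leaving out a mouse that stands apart narrows the spread of its group, so p-values from that fit are a description only. In semaglutide mouse 16, 7 adipocyte markers summed to 19743 normalized counts, against 1772 to 3815 in the other semaglutide mice, and results that this mouse carries are given beside that value. The skeletal muscle genes Myh4, Acta1 and Ckm were abundant in every library, with at least 258639 normalized counts each.

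The clearest pattern in the set was in Lcn2, Cebpd and Nr3c1. Lcn2 and Cebpd had far higher normalized counts under semaglutide than under vehicle, and with the ketone ester both were near the vehicle level. Nr3c1 was lower under semaglutide than under vehicle, and it was also lower with the ketone ester. Between semaglutide and vehicle, limma placed 3 of the 10 genes past the adjusted p threshold of 0.05 as higher (Cebpd, Sgk1 and Lcn2) and 1 as lower (Nr3c1), where 12.5% of all tested genes were higher and 13.9% lower. Without mouse 13, 6 genes were past it as higher, with Klf15, Fkbp5 and Cebpb added, and Nr3c1 as lower, and over all genes the shares also grew, to 17.9% higher and 19.5% lower. Between semaglutide + ketone ester and semaglutide, 6 genes were past the threshold as lower (Klf15, Fkbp5, Tsc22d3, Cebpd, Cebpb and Lcn2) and 0 as higher, against 10.7% and 10.0% of all genes. The count of 6 was 2 without mouse 21 and 3 without mouse 15 or mouse 22. Over all genes the number lower also fell, from 1312 to 638 without mouse 21, 971 without mouse 15 and 601 without mouse 22. Without mouse 13 the count was again 6, against 17.1% of all genes lower and 16.4% higher. In 13 fits that each left out 1 mouse, Klf15 passed in 2 and Cebpb in 1. Between semaglutide + ketone ester and vehicle, 1 gene (Tsc22d3) was past it as lower and 0 as higher, against 0.268% and 0.0975%, or 0.674% and 0.398% without mouse 13. The genes were chosen from these contrasts, so nothing is read from these counts.

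The group ranges gave the same kind of description. The semaglutide and vehicle ranges were apart for 2 of the 10 genes (Lcn2 higher, Nr3c1 lower), against 14.7% of all tested genes. The semaglutide + ketone ester range lay below the semaglutide range for 3 genes (Tsc22d3, Cebpd and Lcn2), where 20.1% of genes had ranges apart in either direction. Against vehicle, the semaglutide + ketone ester range was lower for 2 genes (Tsc22d3 and Nr3c1), where 11.3% had ranges apart. The median log2 difference over the 10 genes was 0.46 for semaglutide against vehicle, -0.84 for semaglutide + ketone ester against semaglutide, and -0.40 for semaglutide + ketone ester against vehicle, and the medians over all tested genes were within 0.01 of 0. The first and second of these comparisons share the semaglutide mice, so a high semaglutide value moves both.

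**Figure D1:**
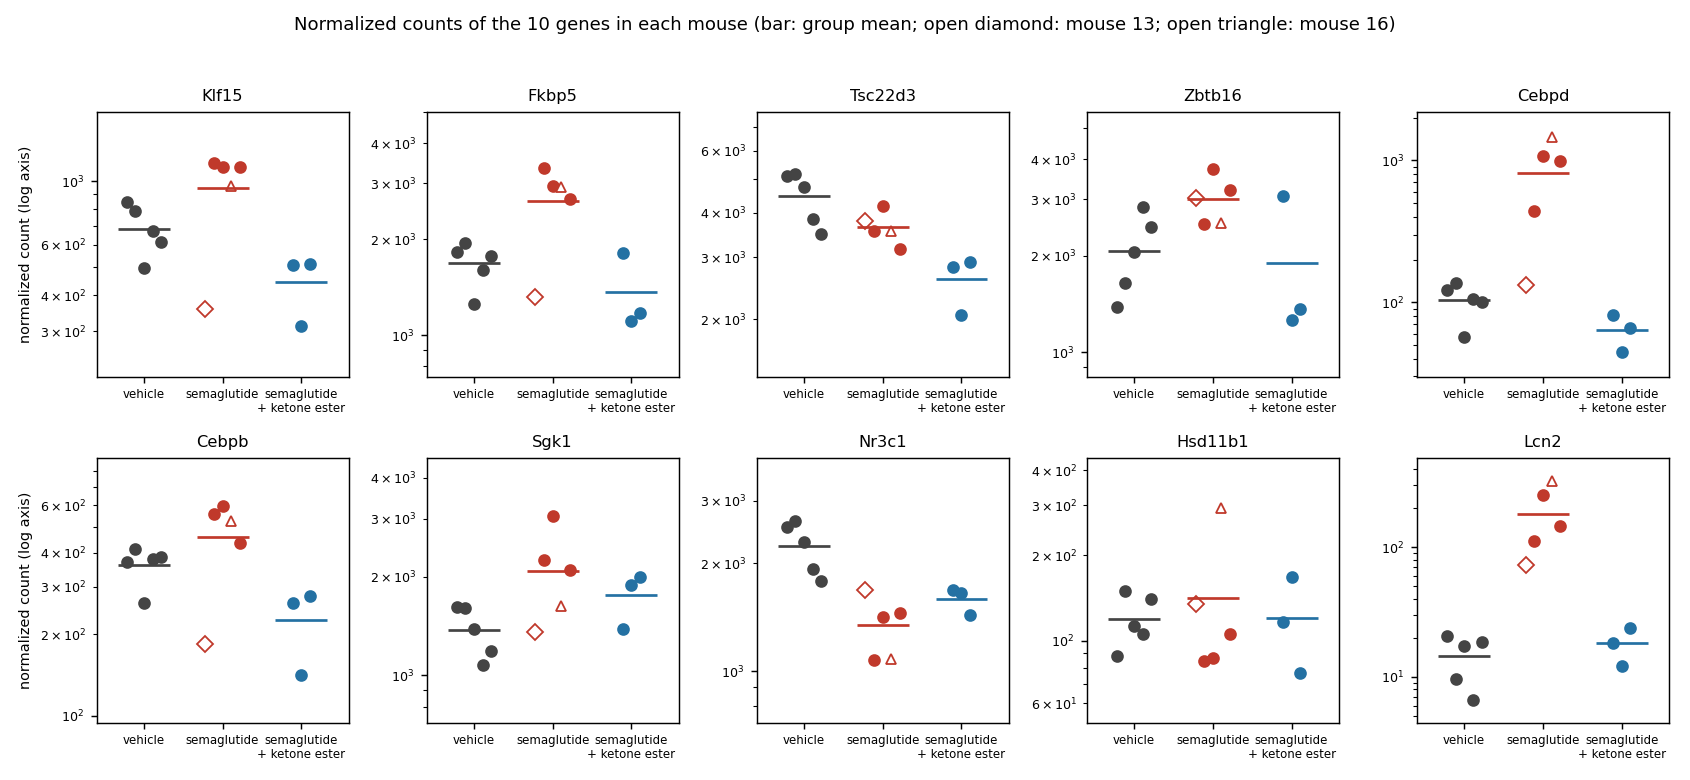
Normalized counts of the 10 genes in each mouse, on log axes, with a bar at each group mean; the open diamond is semaglutide mouse 13 and the open triangle is semaglutide mouse 16. For Klf15, Fkbp5, Cebpd and Cebpb the other 4 semaglutide mice sit above every vehicle mouse, while mouse 13 sits at 357 for Klf15 and 132 for Cebpd.

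Levels of different genes were compared per length, as reads per kilobase of exon per 1000000 reads. In vehicle mice Tsc22d3 stood highest at 53.0 ± 8.02 (SD, n = 5). Zbtb16 (20.4 ± 6.12), Nr3c1 (15.0 ± 2.20), Sgk1 (14.5 ± 2.32), Klf15 (12.7 ± 2.43), Cebpb (12.4 ± 1.99) and Fkbp5 (9.16 ± 1.41) followed, and each of these overlapped its neighbor in the order within 1 SD of both. Hsd11b1 (1.45 ± 0.299) and Cebpd (1.44 ± 0.401) were at one level, and Lcn2 was lowest at 0.287 ± 0.120. Under semaglutide the per-length level of Cebpd was 13.2 ± 9.31 and that of Lcn2 was 4.16 ± 2.72 (n = 5), so Cebpd stood in the range of Klf15 (19.8 ± 7.14) and Cebpb (18.0 ± 6.76) in that group.

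Nr3c1 encodes the glucocorticoid receptor and lies on chromosome 18 (39410545 to 39519421, minus strand, GRCm38). Its normalized counts were 2531, 2629, 2300.3, 1930.4 and 1787 in the vehicle mice. Semaglutide mice 13 to 17 had 1690.5, 1076, 1413, 1078 and 1458, and semaglutide + ketone ester mice had 1685, 1649 and 1438. Every semaglutide mouse and every ketone ester mouse lay below the lowest vehicle mouse, and both treated groups overlapped each other. The log2 difference of semaglutide against vehicle was -0.74 ± 0.14 (SE), a mean of 1343 ± 265 against 2236 ± 368 (SD, n = 5 each), and it was -0.83 without mouse 13. Semaglutide + ketone ester differed from vehicle by -0.48 ± 0.16 and from semaglutide by 0.26 ± 0.16. In bulk muscle, fewer cells of a type and less RNA per cell cannot be told apart, here and for every gene that follows.

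Hsd11b1 encodes 11β-hydroxysteroid dehydrogenase type 1, which turns inactive 11-keto steroids into active glucocorticoid inside cells (chromosome 1, 193221634 to 193264075, minus strand). Its normalized counts were 88.1 to 149 in the vehicle mice and 117, 168 and 76.9 with the ketone ester. Semaglutide mice 13 to 17 had 134, 84.5, 86.6, 294 and 105, so 1 mouse, number 16, was far above the rest. The group means did not separate: semaglutide differed from vehicle by 0.10 ± 0.31 on the log2 scale (95% interval -0.56 to 0.76), and this turned to -0.21 without mouse 16. The same mouse had the highest summed adipocyte markers, 19743, and 748 normalized counts of Cebpa, a C/EBP factor of fat cells, against 66.6 to 114 in the other 4 semaglutide mice. The part of fat tissue in the Hsd11b1 value was not tested. Hsd11b1 shares bases with Lamb3 on the other strand. The libraries kept strand, but the strand setting of the counting is not given in the sources used here, so reads of the partner gene may be included.

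Fkbp5 encodes a co-chaperone of the receptor complex that is itself a glucocorticoid target and damps the receptor (chromosome 17, 28399094 to 28517527, minus strand). Vehicle mice had 1821, 1953, 1249.7, 1599 and 1767 normalized counts. Semaglutide mice 14 to 17 had 3339, 2941, 2927 and 2673, all above the highest vehicle mouse, whereas mouse 13 had 1318. Ketone ester mice had 1815, 1109 and 1170.5, and the highest of these lay inside the vehicle range. The log2 difference was 0.60 ± 0.22 for semaglutide against vehicle, or 0.84 without mouse 13, and -0.92 ± 0.26 for semaglutide + ketone ester against semaglutide. An annotated antisense transcript overlaps Fkbp5, with the same limit as above.

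Klf15 encodes a zinc finger factor induced directly by the receptor, known in muscle for amino acid breakdown (chromosome 6, 90462576 to 90475238, plus strand). Its normalized counts were 844, 789.7, 496, 672 and 616 in vehicle mice. Semaglutide mice 14 to 17 had 1159.6, 1117, 961 and 1124, above all vehicle mice, but mouse 13 had 357, below all of them. Ketone ester mice had 510.1, 312 and 513, and 2 of these 3 values lay inside the vehicle range. The log2 difference of semaglutide against vehicle was 0.37 ± 0.29 with mouse 13 and 0.69 without it, so this mouse moved the value by more than its standard error. Semaglutide + ketone ester lay -1.004 ± 0.33 from semaglutide, a mean of 445 ± 115 (n = 3) against 944 ± 337 (n = 5). When the mice were left out in turn, this difference stayed past the threshold in 2 of 13 fits.

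Tsc22d3 encodes GILZ, a leucine zipper protein that mediates part of the anti-inflammatory action of glucocorticoids (chromosome X, 140539528 to 140600659, minus strand). It took a different course from Fkbp5 and Klf15. Its normalized counts were 5079.6, 5144, 4723, 3836 and 3494 in vehicle mice and 3808, 3560.1, 4179, 3551 and 3155 in semaglutide mice 13 to 17, and these ranges overlapped. Ketone ester mice had 2819, 2061 and 2899.8, below every mouse of both other groups. The log2 difference was -0.28 ± 0.13 for semaglutide against vehicle, -0.50 ± 0.15 for semaglutide + ketone ester against semaglutide, and -0.78 ± 0.15 for semaglutide + ketone ester against vehicle. The last was the single difference of the 10 genes past the threshold against vehicle in the ketone ester group, and 6 of 13 leave-one-out fits kept it there.

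Zbtb16 encodes PLZF, a zinc finger repressor that glucocorticoids induce in many cell types (chromosome 9, 48654297 to 48836222, minus strand). Its normalized counts ran from 1386 to 2833 in the vehicle mice and from 2519.9 to 3736 in the semaglutide mice, and the ranges overlapped. In the ketone ester group mouse 19 had 3083 and mice 21 and 22 had 1259 and 1363, so this group held both a high value and the lowest value of the study. The log2 difference was 0.56 ± 0.24 for semaglutide against vehicle and -0.77 ± 0.28 for semaglutide + ketone ester against semaglutide, and neither was past the threshold.

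Sgk1 encodes a kinase of ion transport and cell survival that is switched on by both glucocorticoids and mineralocorticoids (chromosome 10, 21882184 to 21999903, plus strand), and its promoter entry with the full palindrome is shown above. Vehicle mice had 1616, 1607, 1386, 1073 and 1185 normalized counts. Semaglutide mice 13 to 17 had 1353, 2242, 3068, 1621 and 2092, and ketone ester mice had 1382, 1887 and 1998. Mouse 13 lay inside the vehicle range and the other 4 semaglutide mice above it, and the ketone ester mice overlapped both groups. The log2 difference of semaglutide against vehicle was 0.56 ± 0.19, or 0.70 without mouse 13, and 4 of 13 leave-one-out fits had it past the threshold. Semaglutide + ketone ester differed from semaglutide by -0.20 ± 0.23, with a 95% interval of -0.68 to 0.28, which does not show that these groups are alike.

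Cebpd encodes C/EBPδ, which glucocorticoids and interleukin 6 both induce (chromosome 16, 15887286 to 15891031, plus strand). The vehicle mice had 121, 137, 56.9, 105 and 100.1 normalized counts. Semaglutide mice 13 to 17 had 132, 443, 1075, 1459 and 998, and ketone ester mice had 81.4, 44.7 and 66.1. The 4 semaglutide mice other than mouse 13 were all above every vehicle mouse, mouse 13 was inside the vehicle range, and all 3 ketone ester mice lay below every semaglutide mouse. The mean was 821 ± 529 under semaglutide and 104 ± 30.2 under vehicle (SD, n = 5 each), a 7.88-fold ratio of means. The log2 difference was 2.62 ± 0.51 with all mice, 3.18 without mouse 13 and 2.31 without mouse 16. With the ketone ester it was -3.30 ± 0.59 from semaglutide and -0.68 ± 0.59 from vehicle. Cebpd overlaps Spidr on the other strand.

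Cebpb encodes C/EBPβ, the other member of the pair and a single-exon gene within reach of Tmem189 on the other strand (chromosome 2, 167688915 to 167690418, plus strand). Its normalized counts were 368, 414, 261, 380.3 and 385 in vehicle mice. Semaglutide mice 14 to 17 had 554, 598, 526 and 435, above all vehicle mice, and mouse 13 had 185, below them. Ketone ester mice had 259.9, 141 and 278. The log2 difference of semaglutide against vehicle was 0.25 ± 0.28, or 0.55 without mouse 13, and that of semaglutide + ketone ester against semaglutide was -0.97 ± 0.33. Of 13 leave-one-out fits, only the 1 without mouse 13 had the second past the threshold. Both C/EBP genes thus had mouse 13 apart from the other semaglutide mice, but the size of the difference was far greater in Cebpd.

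Lcn2 encodes lipocalin 2, an iron-siderophore-binding protein of the acute phase that neutrophils, fat and other tissues make (chromosome 2, 32384633 to 32388252, minus strand), and its promoter is shown above. The vehicle mice had 20.6, 9.63, 17.3, 6.65 and 18.6 normalized counts, from 6 to 18 reads each. Semaglutide mice 13 to 17 had 72.5, 113, 253, 325 and 145, and ketone ester mice had 18.2, 12.1 and 24.0. Every semaglutide mouse, mouse 13 included, lay above every mouse of the other groups, and the ketone ester mice overlapped the vehicle mice. The mean was 182 ± 105 against 14.6 ± 6.07 under vehicle (n = 5 each), a 12.5-fold ratio of means, with counting error large in the vehicle mice. The log2 difference was 3.46 ± 0.40 with all mice, 3.74 without mouse 13 and 3.20 without mouse 16, and -3.10 ± 0.46 for semaglutide + ketone ester against semaglutide.

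Markers of other cells that make Lcn2 were measured beside it. The summed normalized counts of 9 neutrophil markers were 1.14 to 12.4 in vehicle mice, 11.6 to 41.8 in semaglutide mice and 6.01 to 10.9 in ketone ester mice. The highest sum was in mouse 16, which also had the highest Lcn2. None of the 9 markers reached the mean of 10 that was required for testing, Ly6g was 0 in all 13 mice, Camp, Mpo and Elane were each above 0 in 1 mouse, and most of the sum over the 13 mice came from S100a8 and S100a9. The summed adipocyte markers were 1772 to 3815 in the semaglutide mice other than mouse 16 and 3380.5 to 7084 in vehicle mice. With all mice 0 of the 7 were past the threshold in any comparison, and without mouse 13 Lep was lower under semaglutide than under vehicle (-3.29, limma, adjusted p = 0.0389). For 7 macrophage markers 0 were past it either, with sums of 595 to 1804 in vehicle mice and 758 to 2276 in semaglutide mice. The part of these cells in the Lcn2 values was not tested. Among fibroblast markers 4 of 5 were lower under semaglutide than under vehicle, and among muscle fiber markers 2 of 8 were lower, or 4 of 8 without mouse 13. Of all tested genes 13.9% were lower in this comparison, or 19.5% without mouse 13.

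**Figure D2:**
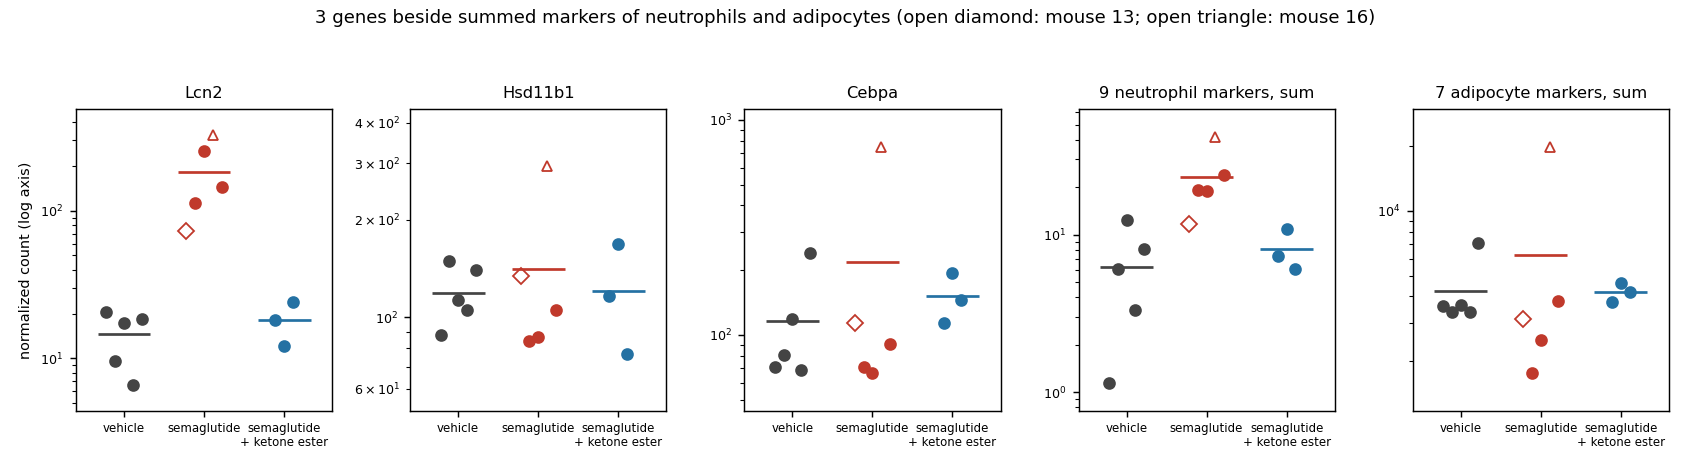
Normalized counts, on log axes, of Lcn2, Hsd11b1 and Cebpa in each mouse beside the summed normalized counts of 9 neutrophil and 7 adipocyte markers; bars are group means, the open diamond is mouse 13 and the open triangle is mouse 16. Mouse 16 is highest in all 5 panels, at 294 for Hsd11b1 and 19743 for the adipocyte sum, while the neutrophil sums stay at or below 41.8.

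**Figure D3:**
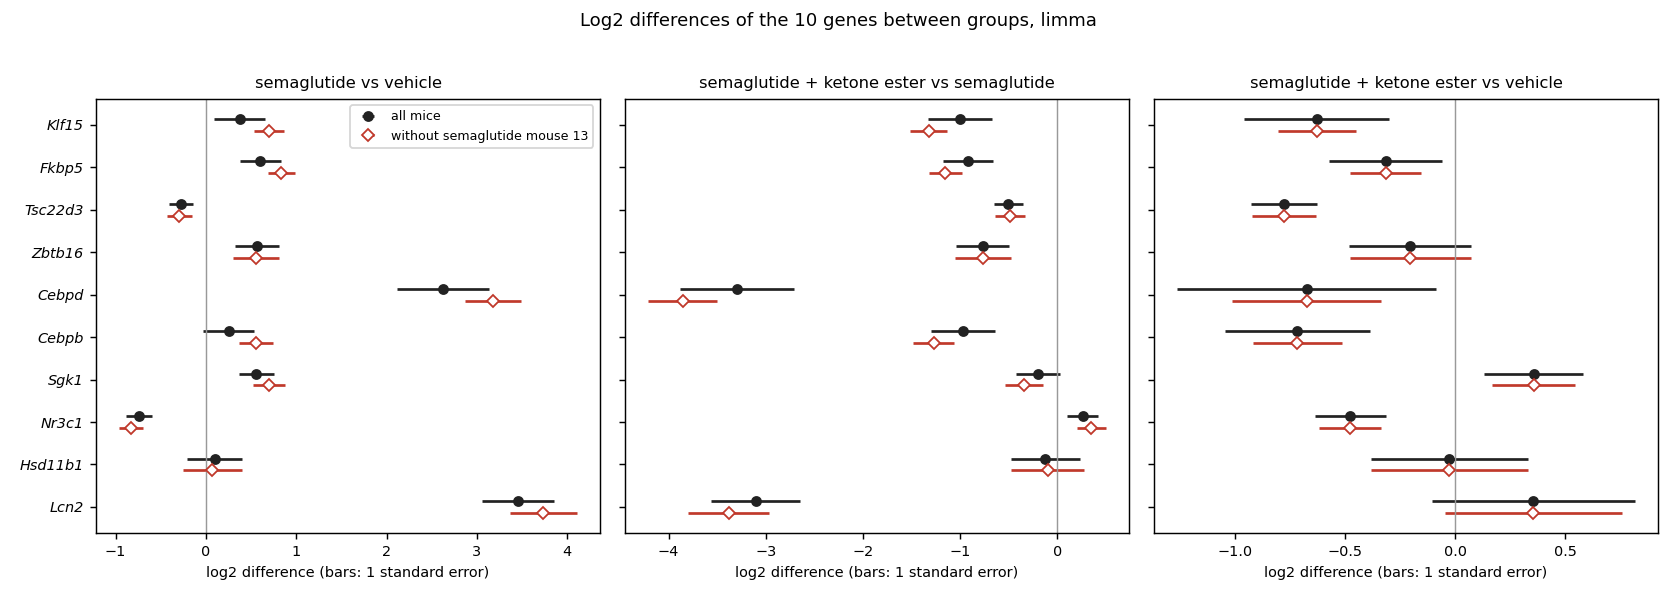
Log2 differences of the 10 genes between groups, with bars of 1 standard error, from all mice (filled circles) and without semaglutide mouse 13 (open diamonds). Lcn2 and Cebpd lie farthest from 0 for semaglutide against vehicle and for semaglutide + ketone ester against semaglutide. For semaglutide + ketone ester against vehicle Tsc22d3 does, at -0.78. Leaving out mouse 13 moves Klf15 from 0.37 to 0.69 and Cebpb from 0.25 to 0.55 for semaglutide against vehicle.

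The question of whether other glucocorticoid targets moved was put to 26 genes that are not among the 10. These were listed as known targets, and each was tested by limma with Benjamini-Hochberg adjustment over all 12303 genes. This list, like the others below, was chosen with earlier results of these data known. The counts and p-values of these lists are therefore a description. Under semaglutide 7 rose and 3 fell against vehicle, and 16 did not pass, with a median log2 difference of 0.32, where 12.5% of all tested genes were higher and 13.9% lower. Without mouse 13, 13 rose and 3 fell, where 17.9% and 19.5% of all genes were higher and lower. Because the list was chosen with earlier results known, nothing is read from its counts beside such shares, higher or lower. With the ketone ester added, 12 were lower and 1 higher than under semaglutide alone, with a median of -0.93, against 10.7% and 10.0% of all genes. Without mouse 13, 17 were lower and 2 higher, against 17.1% and 16.4%. Without mouse 21, 6 were lower and 1 higher, and without mouse 22, 8 were lower. Over all genes, 1312 were lower and 1234 higher with all mice. Without mouse 21 these were 638 and 627, and without mouse 22 they were 601 and 549. Against vehicle, 1 was lower in the ketone ester group and 0 higher, with a median of -0.42, and 5 were lower without mouse 13, against 0.268% and 0.674% of all genes in these fits.

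Pik3r1, the regulatory subunit of phosphoinositide 3-kinase, rose by 1.52 ± 0.22 under semaglutide (limma, adjusted p = 0.000296). Its vehicle mice had 516 to 919.8 normalized counts and its semaglutide mice 1030.0 to 2723, so the groups did not overlap. The metallothionein genes, which encode metal-binding proteins, rose together: Mt1 by 1.62 ± 0.27 (adjusted p = 0.000905) and Mt2 by 1.67 ± 0.36 (adjusted p = 0.00403). Both were lower with the ketone ester than with semaglutide alone, by -2.45 ± 0.31 and -3.04 ± 0.41 (limma, adjusted p = 0.000536 and 0.000576). Nfkbia, the inhibitor of NF-κB, rose by 1.00 ± 0.19 (adjusted p = 0.00194), and Cdkn1a, the p21 cell cycle inhibitor, by 1.60 ± 0.39 (adjusted p = 0.00811). Errfi1 and Irs2, which act on growth factor and insulin signaling, also rose.

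Other targets went the opposite way. Bcl6, a transcriptional repressor, fell by 1.65 ± 0.34 on the log2 scale under semaglutide (limma, adjusted p = 0.00328), but mouse 13 at 2194 normalized counts was inside the vehicle range of 1711 to 2950.5, and the other 4 had 497 to 645. Foxo1, a transcription factor of muscle atrophy and fasting, fell by 1.03 ± 0.26 (adjusted p = 0.00923). It was lower still with the ketone ester, by -1.09 ± 0.29 against semaglutide (adjusted p = 0.0190) and by -2.12 ± 0.29 against vehicle (adjusted p = 0.00992). Cdkn1c also fell. The ubiquitin ligase genes Fbxo32 and Trim63, the best known atrophy genes of this program, had differences of 1.00 ± 0.64 and 0.97 ± 0.52 against vehicle that did not pass (adjusted p = 0.273 and 0.183). Mouse 13 had 1460.3 normalized counts of Fbxo32, where vehicle mice had 6729.6 to 7444 and the other 4 semaglutide mice 12699 to 31652. Without it, in the fit added after the data were seen, Fbxo32 was at 1.81 and Trim63 at 1.57 (limma, adjusted p = 2.74e-05 and 0.000480). Pdk4, Angptl4 and Txnip, further genes that glucocorticoids induce in muscle, did not pass in any comparison, with or without mouse 13. Against vehicle their log2 differences under semaglutide were -1.15, -1.09 and -0.53 with all mice and -0.40, -0.50 and -0.41 without mouse 13. For Angptl4, semaglutide mice 13 and 14 had 22.2 and 15.8 normalized counts and mice 15 to 17 had 313 to 626. Its vehicle range was 171 to 390, and its ratio of means was 0.985. For Pdk4, semaglutide mice 13 and 14 had 978 and 1273 normalized counts, and mice 15 to 17 had 24557 to 34233, above the vehicle range of 14647 to 21344, so the group lay on both sides of the vehicle mice and the ratio of means was 1.01.

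**Figure D4:**
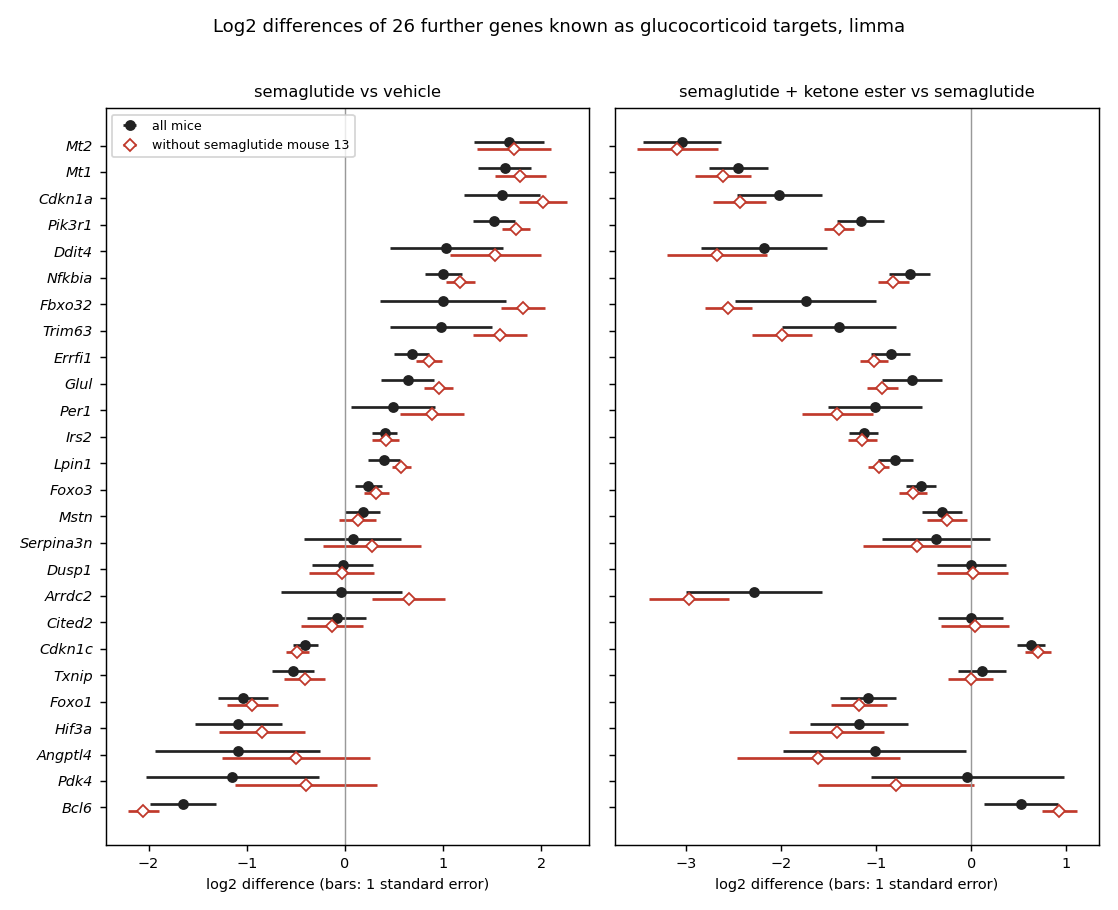
Log2 differences of the 26 further glucocorticoid targets for semaglutide against vehicle (left) and semaglutide + ketone ester against semaglutide (right), with bars of 1 standard error, from all mice (filled circles) and without semaglutide mouse 13 (open diamonds). Mt2 is at 1.67 and Bcl6 at -1.65 on the left, and on the right 22 of 26 points lie below 0.

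Genes that set receptor activity beside Nr3c1 and Hsd11b1 were listed as well, of which 11 of 12 were tested. Under semaglutide 4 rose and 1 fell, where 12.5% of all tested genes were higher and 13.9% lower. Hsp90ab1, the chaperone that holds the receptor ready for hormone, rose by 0.53 ± 0.16 (limma, adjusted p = 0.0242), Fkbp4, the co-chaperone that opposes Fkbp5, by 0.31 ± 0.09 (adjusted p = 0.0184), and H6pd, which supplies NADPH to the Hsd11b1 enzyme, by 0.30 ± 0.09 (adjusted p = 0.0288). Ncor1, a corepressor, also rose, by 0.24 ± 0.08 (adjusted p = 0.0298). Ncoa2, a coactivator, fell by 0.25 ± 0.07 (adjusted p = 0.0144). For Ncor1 and Ncoa2 the semaglutide and vehicle ranges did not overlap. With the ketone ester 5 of the 11 were lower than under semaglutide and 1 higher, against 10.7% and 10.0% of all genes. Hsp90aa1 was the 1 gene of the list that differed between the ketone ester and vehicle groups, at -0.88 ± 0.16 (adjusted p = 0.0261). The mineralocorticoid receptor gene Nr3c2 did not pass in any comparison with all mice, at -0.25 ± 0.12 for semaglutide against vehicle (adjusted p = 0.125). Without mouse 13 it passed in 2 comparisons, at -0.34 for semaglutide against vehicle and 0.47 for semaglutide + ketone ester against semaglutide (limma, adjusted p = 0.0217 and 0.00808). The list as a whole then had 5 higher and 2 lower under semaglutide against vehicle, with Ptges3 the other gene added. In that fit 17.9% of all genes were higher and 19.5% lower.

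Relatives of the 10 genes were tested as 3 lists. Over all tested genes, 12.5% were higher and 13.9% lower under semaglutide against vehicle. With the ketone ester, 10.0% were higher and 10.7% lower than under semaglutide alone. Nothing is read from the counts of these lists beside such shares. Of the other C/EBP genes, 3 of 4 were tested and 0 passed between semaglutide and vehicle. Cebpg was lower with the ketone ester than with semaglutide alone, by -0.28 ± 0.08 (limma, adjusted p = 0.0312). Of 12 tested Klf genes other than Klf15, Klf2 and Klf6 rose under semaglutide, by 0.78 ± 0.21 and 0.52 ± 0.18, and Klf13 fell by 0.69 ± 0.19 (limma, adjusted p = 0.0143, 0.0453 and 0.0165). Both that rose were lower with the ketone ester. Without mouse 13 Klf9 was also higher, by 0.29 (adjusted p = 0.0279). Tsc22d4, a relative of Tsc22d3, had 674 to 846 normalized counts in vehicle mice, 333 to 476 in semaglutide mice and 681 to 791 with the ketone ester. It fell by 1.02 ± 0.10 under semaglutide and was higher by 0.99 ± 0.12 with the ketone ester (limma, adjusted p = 2.77e-05 and 0.000320), so its groups were apart in both comparisons. Sgk3 also fell, by 0.54 ± 0.13 (adjusted p = 0.00903).

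Genes downstream of Klf15 were listed, and so were genes of the acute phase and of interleukin 6 signaling. Over all tested genes, 12.5% were higher and 13.9% lower under semaglutide against vehicle. Of 4 genes that Klf15 is known to act on in muscle, the amino acid enzymes Bcat2 and Gpt fell under semaglutide, by 0.40 ± 0.11 and 0.77 ± 0.15 (limma, adjusted p = 0.0181 and 0.00268), and both were higher with the ketone ester. Prodh, of proline breakdown, was at 0.54 ± 0.27 and did not pass (adjusted p = 0.149), but was past the threshold at 0.84 without mouse 13 (adjusted p = 0.00137). Of 13 acute phase and interleukin 6 genes listed beside Lcn2 and Cebpd, 6 were tested and 2 rose: Il6ra, the interleukin 6 receptor, by 1.92 ± 0.45, and Stat3, its transcription factor, by 0.31 ± 0.08 (limma, adjusted p = 0.00732 and 0.0136). Both were lower with the ketone ester. Without mouse 13, Il1r1 was also past the threshold, at -0.64 under semaglutide (adjusted p = 0.0101). In Il6ra, mouse 13 at 109 normalized counts lay inside the vehicle range of 75.5 to 161 and the other 4 semaglutide mice had 410.2 to 970.1. The acute phase genes Saa1, Saa2, Saa3, Orm1 and Orm2 were too low to test.

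Glucocorticoids follow the day, so genes of the circadian clock were listed as well, and 11 were tested. Over all tested genes, 12.5% were higher and 13.9% lower under semaglutide against vehicle. Under semaglutide Cry1 and Cry2 rose, by 0.44 ± 0.13 and 0.58 ± 0.18, and Dbp, Ciart and Nr1d1 fell, by 1.63 ± 0.32, 1.35 ± 0.25 and 0.97 ± 0.22 (limma, adjusted p between 0.00176 and 0.0322 for these 5). Nr1d2 was a further gene past the threshold without mouse 13, at -0.22 (limma, adjusted p = 0.0261). Dbp had 1190.1 to 1517 normalized counts in vehicle mice and 286 to 364 in semaglutide mice 14 to 17, whereas mouse 13 had 1272 and the ketone ester mice had 2081 to 2241. With the ketone ester 4 of the 11 were higher and 4 lower than under semaglutide alone, against 10.0% and 10.7% of all genes. Arntl was lower and Per3 higher against vehicle, by -1.36 ± 0.21 and 0.80 ± 0.14 (limma, adjusted p = 0.0131 and 0.0231). The part of the hour of tissue collection in the values of the 10 genes was not tested.

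Across the 13 mice, the tested gene whose log2 values were most like those of Klf15 was another of the 10, Cebpb (Pearson r = 0.96), followed by Slc1a1, Nol8, Sorbs3 and Zcchc2 (r = 0.93 to 0.96). For Fkbp5 the likest were Fam120b, Nrap, Pde8a, Gsr and Mknk2 (r = 0.95 to 0.96). Those for Cebpd were Gcn1l1, Ddx27, Bnip3, Slc25a28 and Depp1 (r = 0.97 to 0.98), and those for Lcn2 were Rpl26, Srm, Rps9, Fbp2 and Il6st, the shared signaling subunit of the interleukin 6 receptor family (r = 0.95 to 0.96). Klf15 and Fkbp5 had r = 0.91 with each other, and Nr3c1 and Lcn2 had r = -0.74. These values describe 13 mice that share groups and 1 mouse apart, and genes most alike were picked out of all those tested.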

How the data were processed

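Total RNA from the gastrocnemius of 13 mice had been sequenced as stranded mRNA libraries. The submitters' processing notes name DRAGEN, DESeq2 and the build mm10, while the counter, its strand setting and the annotation are not given in the sources used here. The authors deposited 1 table of normalized counts per gene and mouse, a signal in which each column had been divided by a size factor. 100% of the values were whole reads within a tolerance of 0.05, so the reads behind each value, and the depth, could be recovered.

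Values were taken as log2(normalized count + 1), so fold changes of low genes are understated. Genes with a mean of at least 10 were kept (12303 of 21868). 1 model over the 3 groups was fitted with limma 3.58.1 (R 4.3.3, variance trend), and p-values were adjusted by Benjamini-Hochberg over all genes kept, with a threshold of 0.05. The fit was checked on simulated data. Alternatives used edgeR 4.0.16 and DESeq2 1.42.0 on the recovered reads, other scalings, pseudocounts and filters, sample weights, the 2 groups compared alone, and each mouse left out in turn. Coordinates and exon lengths come from GENCODE M21 (GRCm38), and promoters from RefSeq.

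The 10 genes and all lists were chosen with earlier results of these data known. Genes named are the 10, list genes past the threshold (leading with up to 4 of smallest adjusted p for semaglutide against vehicle) with others of the lists, and the 5 genes likest to Klf15, Fkbp5, Cebpd and Lcn2. The fit without mouse 13, in which 12320 genes were kept, was added after seeing the data. Groups come from the treatment labels, and mouse numbers are not shared between groups.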

Additional observations from a re-analysis of the deposited data

Results flagged for a closer look

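In groups of 5 mice, Dixon's test compares the gap between the farthest mouse and its nearest neighbor with the whole range. The critical value is 0.710, and chance flags about 1 in 20 groups. Each of the 10 genes was examined in the vehicle group and in the semaglutide group. Klf15 in semaglutide mouse 13 was at 357 normalized counts, with a ratio of 0.753, below the other 4 semaglutide mice. Hsd11b1 in semaglutide mouse 16 was at 294 normalized counts, with a ratio of 0.762, above the other 4.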

How the results depend on the processing

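Of the 10 genes, 4 were past the threshold between semaglutide and vehicle, 7 with sample weights, and 3 to 7 when each mouse was left out. Between semaglutide + ketone ester and semaglutide the count of 6 became 2 with only these groups fitted. It became 2 to 6 with a mouse left out (2 without mouse 21, 3 without mouse 15 or 22). Over all genes, the 1312 lower became 626 with only these groups fitted and 601 to 2103 with a mouse left out. Against vehicle, 1 gene in the ketone ester group became 0 to 1 (0 without mouse 1, 2, 3, 14, 19, 21 or 22). Over all genes, 12 higher and 33 lower there became 0 and 4 without mouse 22, and 49 and 83 without mouse 13. Of the 26 further targets, 10 (semaglutide against vehicle) became 8 to 16, the highest without mouse 13. The 13 between the ketone ester and semaglutide groups became 8 with only these groups fitted and 7 to 19 with a mouse left out, and the 1 against vehicle became 2 with equal totals, 5 with sample weights, 3 with DESeq2, 9 with only these groups fitted and 0 to 5 with a mouse left out. Hsd11b1 changed sign, with differences of -0.14 (sample weights) and -0.21 to 0.24 (a mouse left out) for semaglutide against vehicle, 0.16 and -0.40 to 0.18 for semaglutide + ketone ester against semaglutide, and 0.0194 (sample weights), 0.0331 (edgeR), 0.0245 (DESeq2) and -0.30 to 0.26 for semaglutide + ketone ester against vehicle. Zbtb16 in that last comparison ran from -0.617 to 0.0291 with a mouse left out. The cause of these moves was not tested beyond the samples left out. Of 270 values of the 10 genes under other settings, 246 kept direction and side of the threshold, as did 334 of 390 with a mouse left out. Equal totals shifted the median of all genes by 0.17 (semaglutide against vehicle) and -0.24 (ketone ester against semaglutide) and the split of higher and lower genes from 1540 and 1715 to 3351 and 985, and from 1234 and 1312 to 637 and 3715. The medians of the other C/EBP, relative and clock lists (ketone ester against semaglutide) and of the acute phase list (semaglutide against vehicle) changed sign under it. Over all genes, 45 called between ketone ester and vehicle became 318 with sample weights, 172 with DESeq2 and 268 with only these groups fitted. No paired analysis was possible because the mouse numbers of the groups are not shared.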
